A study of Rattus norvegicus with 13 samples.

Results

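Transcription factors that set the cell lineages of the mammary epithelium were compared between 2 ages of rat, by RNA-seq of mammary epithelial cells. The 10 genes were chosen by name, with earlier results of these data known: *Gata3*, *Foxa1*, *Trps1*, *Elf5*, *Ehf*, *Elf3*, *Sox9*, *Sox10*, *Tp63* and *Ovol1*. All 10 are among the 14790 genes of the table. The animals were Wistar-Furth rats, an inbred strain susceptible to mammary cancer, with no treatment or genetic change named in the labels. Glands were taken from 6 rats at 6 weeks of age, which the study places within the window of susceptibility to mammary carcinogens (WOS), and from 7 rats at 10 weeks, placed outside it. Each rat gave 1 library. The cells were ductal fragments freed with collagenase and kept back on a nylon mesh, a preparation enriched in epithelium that still holds stromal fibroblasts and immune cells.

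The mammary duct is built from an inner luminal and an outer basal, or myoepithelial, layer. The luminal layer holds hormone-sensing cells, which carry the estrogen and progesterone receptors, and progenitors of the milk-secreting alveolar cells. GATA3 maintains luminal fate, FOXA1 opens chromatin for the estrogen receptor, and ELF5 drives alveolar differentiation downstream of prolactin. TP63 maintains the basal layer, while SOX9 and SOX10 are linked to stem and progenitor states. EHF and ELF3 are ETS factors of epithelia, TRPS1 is a GATA-type repressor, and OVOL1 is a zinc finger repressor that holds cells in an epithelial state.

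Of the lineage factors, 4 differed with age, each of them higher at 10 weeks: *Sox9*, *Ehf*, *Ovol1* and *Trps1*. Their mean expression at 10 weeks was 1.69, 1.62, 1.47 and 1.34 times that at 6 weeks, and in each case every rat at 10 weeks lay above every rat at 6 weeks. The factors that define the main lineages, *Gata3*, *Elf5*, *Foxa1* and *Tp63*, overlapped between the ages and did not pass the test. *Sox10* and *Elf3* did not pass it either. A gene is called differentially expressed (DE) here at an adjusted p under 0.05 from limma, a linear model fitted over all 14790 genes.

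Expression is given in normalized counts, which are the authors' estimated counts scaled per library and rounded. Differences are log2 ratios of 6 to 10 weeks, called log2 fold change, and those below 0 mark genes higher at 10 weeks. Of the 10 factors, 4 were DE and higher at 10 weeks and 0 were DE and higher at 6 weeks. The factors were chosen with earlier results of these data known, and the study reports *Trps1* and *Ovol1* as up-regulated outside the WOS. The shares below are therefore descriptions and not a test of the list. Over all genes tested, 16.1% were DE, 7.39% being higher at 10 weeks and 8.71% higher at 6 weeks. Without overlap between the ages, 2.78% of all genes were higher at 10 weeks and 3.29% higher at 6 weeks, and of the factors 4 and 0. Overlap was counted in the authors' scaling alone. The gap was narrow for *Sox9* (1686 at 6 weeks against 1694 at 10 weeks) and *Trps1* (3428 against 3546). An unadjusted p under 0.05 was found for 5 of the 10 factors and for 31.6% of all genes. A log2 fold change below 0 was found for 9 of the 10 factors, against 47.5% of all genes, and the median was -0.41 for the factors and 0.028 for all genes. Levels of different factors are not compared with each other, since transcript lengths were not used here.

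The libraries summed to between 13261906 and 15659533 normalized counts. Of the variation left within the ages, 28.3% fell on the first principal component over all genes. It set apart 5 rats, rats 75 and 80 at 6 weeks and rats 78, 81 and 83 at 10 weeks, from the other 8 (4 at either age), and the labels give no reason for this. The 5 rats are called the smaller set and the 8 the larger set, and values within each set are given for the factors that were DE. With 2 rats against 3, no gene in the table was DE within the smaller set (1976 had an unadjusted p under 0.05 in limma), so only the size of a difference can be read there.

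**Figure D1:**
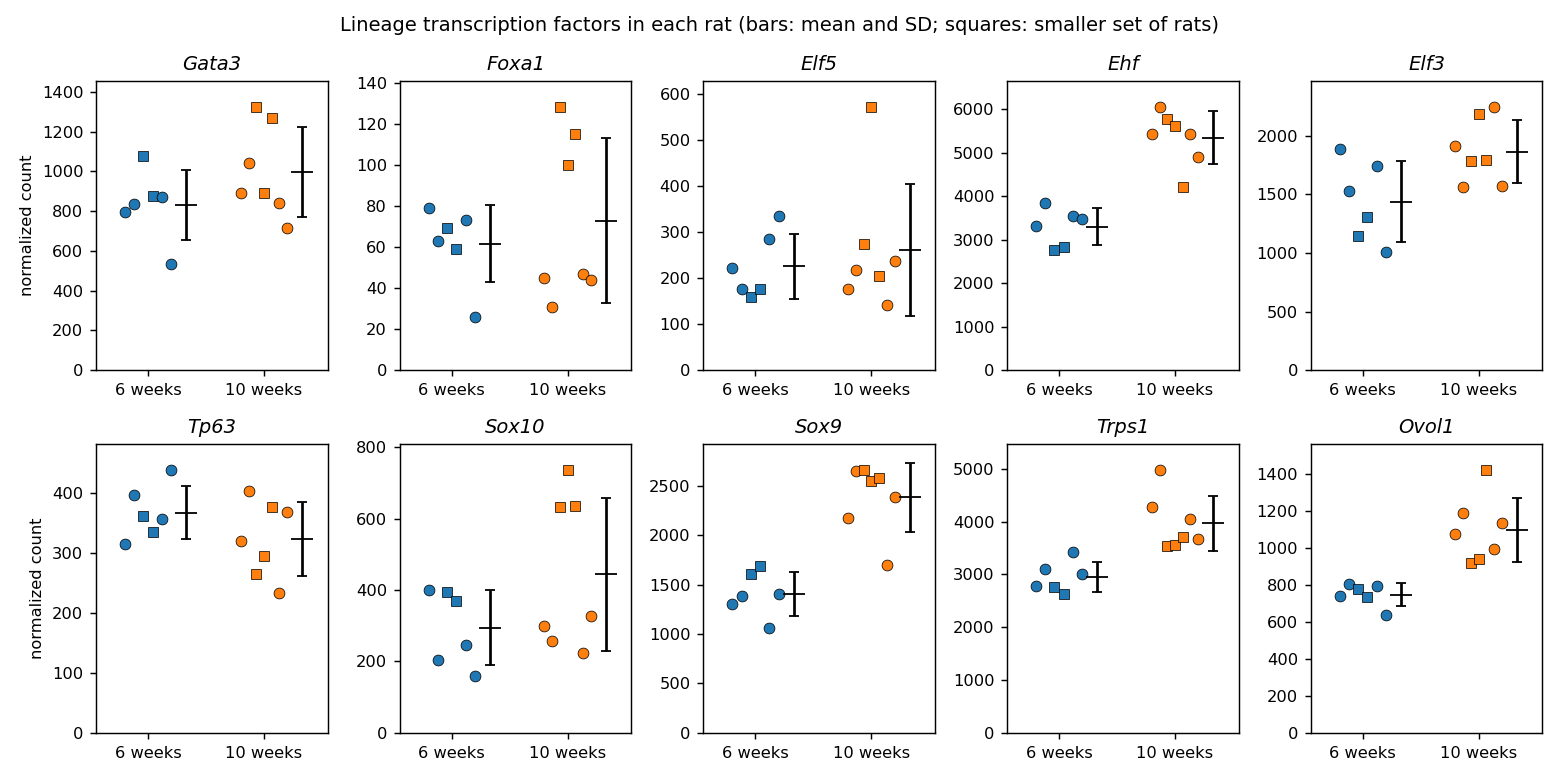
Normalized counts (vertical axis, from 0) of the 10 lineage transcription factors in each of 6 rats at 6 weeks and 7 rats at 10 weeks. Circles are rats of the larger set and squares rats of the smaller set, and bars give the mean and SD. In *Ehf*, *Sox9*, *Trps1* and *Ovol1* the ages do not overlap, though in *Sox9* they nearly touch (1686 and 1694). In *Sox10* and *Foxa1* the 3 squares at 10 weeks lie above all other rats of that age.

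Of the ETS factors among the chosen genes, *Ehf* was the one that differed with age. *Ehf* (ENSRNOG00000007484) ranged from 2758 to 3840 normalized counts at 6 weeks, with a median of 3396. At 10 weeks it ranged from 4216 to 6046, with a median of 5440. The lowest rat at 10 weeks, rat 83, was thus above the highest rat at 6 weeks, rat 71. The means were 3295 ± 425 (SD, n = 6) and 5351 ± 612 (SD, n = 7), a log2 fold change of -0.70 (adjusted p = 0.0019) with a standard error of 0.12. It was -0.62 in the larger set and -0.88 in the smaller set.

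*Elf3* (ENSRNOG00000006330), which is active in secretory epithelia, had 1005 to 1887 normalized counts at 6 weeks (median 1416.5) and 1559 to 2241 at 10 weeks (median 1795). Rats 71, 75, 80 and 86 lay below every rat at 10 weeks, whereas rats 70 and 84 lay among them. The means were 1435 ± 346 (SD, n = 6) and 1863 ± 269 (SD, n = 7). Its log2 fold change of -0.40 (95% interval -0.75 to -0.053) did not pass the threshold (adjusted p = 0.107).

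*Elf5* (ENSRNOG00000008282), the alveolar factor, was centred at nearly the same level at both ages. It had 160 to 336 normalized counts at 6 weeks (median 199.5) and 142 to 572 at 10 weeks (median 218). The range at 10 weeks was set by rat 81 at 572, as the other 6 rats had at most 275. The means were 226 ± 70.7 (SD, n = 6) and 261 ± 144 (SD, n = 7), and the log2 fold change was -0.12 (95% interval -0.75 to 0.50, adjusted p = 0.805). Leaving out rat 81 gave 0.090, the larger set gave 0.38 and the smaller set -0.92, with no value past the threshold, so no direction can be given for *Elf5*. *Elf5* and *Ehf* lie on the same chromosome in the RefSeq rat annotation, chromosome 3.

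In the SOX family, *Sox9* differed with age and *Sox10* varied widely within each age. *Sox9* (ENSRNOG00000002607) had 1064 to 1686 normalized counts at 6 weeks (median 1394.5) and 1694 to 2658 at 10 weeks (median 2545). The ranges came close, as rat 85 at 10 weeks stood at 1694 and rat 80 at 6 weeks at 1686. The next lowest rat at 10 weeks, rat 72, had 2170. The means were 1408 ± 221 (SD, n = 6) and 2383 ± 349 (SD, n = 7), and the log2 fold change of -0.76 ± 0.14 (SE, adjusted p = 0.0034) was the furthest from 0 of the 10 factors. It was -0.78 in the larger set and -0.66 in the smaller set.

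*Sox10* (ENSRNOG00000011305), which also marks neural crest and Schwann cells, had 159 to 400 normalized counts at 6 weeks (median 306.5) and 223 to 736 at 10 weeks (median 328). Rats 78, 81 and 83 at 10 weeks had 632, 736 and 634, above every rat at 6 weeks. The other 4 rats at 10 weeks had 223 to 328, inside the range at 6 weeks. The means were 295 ± 106 (SD, n = 6) and 444 ± 214 (SD, n = 7). The log2 difference of -0.53 (SE 0.34, 95% interval -1.25 to 0.20) did not pass the threshold (adjusted p = 0.302). It was -0.21 in the larger set and -0.80 in the smaller set. The Schwann cell markers, all 6 of which are in the table and 0 of which were DE, summed to 3626 to 6092 normalized counts at 6 weeks and 4231 to 5564 at 10 weeks.

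The luminal factors *Gata3* and *Foxa1* overlapped between the ages, while *Trps1* did not. *Gata3* (ENSRNOG00000019336) had 535 to 1079 normalized counts at 6 weeks (median 852.5) and 715 to 1322 at 10 weeks (median 891). Rats 78 and 83 at 10 weeks, at 1322 and 1270, were the only rats above the range at 6 weeks. The means were 832 ± 175 (SD, n = 6) and 995 ± 227 (SD, n = 7), a log2 fold change of -0.26 (95% interval -0.65 to 0.13, adjusted p = 0.351).

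*Foxa1* (ENSRNOG00000009284) was found at low normalized counts, 26 to 79 at 6 weeks (median 66) and 31 to 128 at 10 weeks (median 47). Rats 78, 81 and 83 at 10 weeks had 128, 100 and 115, above every rat at 6 weeks, while the other 4 rats of that age had at most 47. Of the 6 rats at 6 weeks, 5 lay above the median at 10 weeks, although the mean was lower at 6 weeks (61.5 ± 18.8, SD, n = 6) than at 10 weeks (72.9 ± 40.0, SD, n = 7). This was a log2 fold change of -0.13 (95% interval -0.92 to 0.66, adjusted p = 0.834). It was 0.42 in the larger set and -0.82 in the smaller set, and it was above 0 without rat 86 (0.095), rat 78 (0.034) or rat 83 (0.0088), with no value past the threshold. As for *Elf5*, no direction can be given.

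*Trps1* (ENSRNOG00000024998) had 2638 to 3428 normalized counts at 6 weeks (median 2890.5) and 3546 to 4978 at 10 weeks (median 3708). The gap between the ages lay between rat 84 at 3428 and rat 78 at 3546, and was small beside the spread within each age. Its log2 fold change of -0.42 ± 0.11 (SE, adjusted p = 0.0206) was the smallest of those that passed. It was -0.46 in the larger set and -0.41 in the smaller set, and under library size scaling it was -0.37 and fell short of the threshold (adjusted p = 0.0514).

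The basal factor *Tp63* (ENSRNOG00000001924) was the only one of the 10 with a log2 fold change above 0. It had 315 to 439 normalized counts at 6 weeks (median 359.5) and 234 to 404 at 10 weeks (median 321), and 5 of 6 rats at 6 weeks lay above the median at 10 weeks. The means were 368 ± 44.4 (SD, n = 6) and 324 ± 62.6 (SD, n = 7), so that the log2 fold change of 0.20 (95% interval -0.11 to 0.50, adjusted p = 0.359) did not pass the threshold.

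*Ovol1* (ENSRNOG00000020669) had 638 to 806 normalized counts at 6 weeks (median 757) and 917 to 1422 at 10 weeks (median 1077). The groups were parted by more than 100 normalized counts, with rat 71 highest at 6 weeks and rat 78 lowest at 10 weeks. This gave a log2 fold change of -0.54 ± 0.12 (SE), with an adjusted p of 0.0086. The larger set gave -0.56 and the smaller set -0.51.

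**Figure D2:**
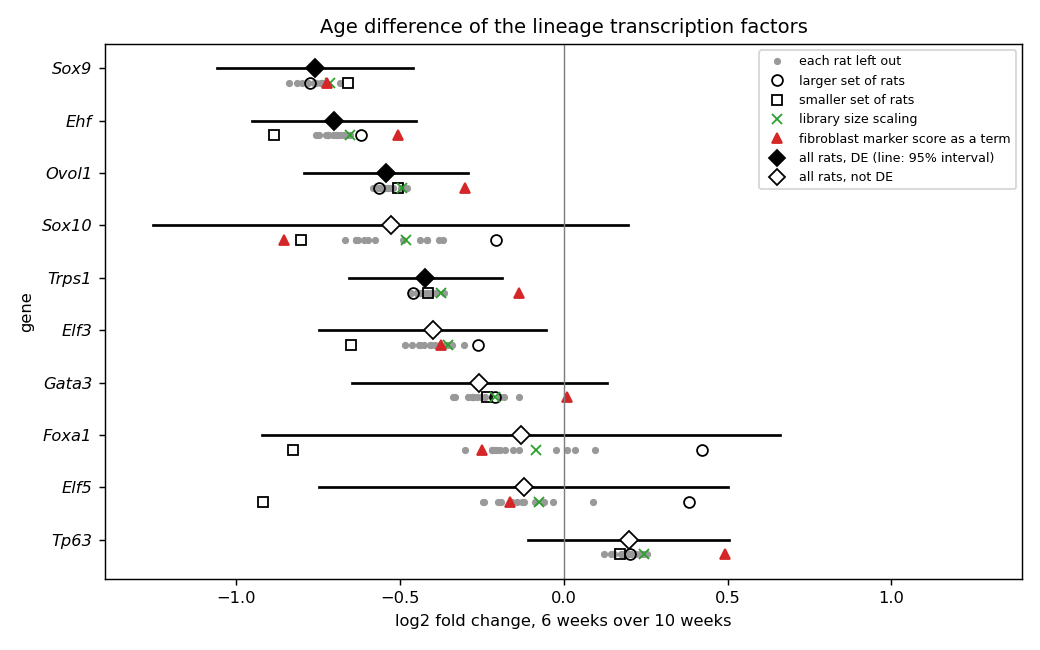
Log2 fold change (horizontal axis, 6 weeks over 10 weeks) of each lineage factor in limma over 13 rats, with its 95% interval (diamond and line), and below it the values with each rat left out, within each set of rats, under library size scaling and with the fibroblast marker score as a term. The filled diamonds (*Sox9*, *Ehf*, *Ovol1* and *Trps1*) have intervals below 0, and the values for *Elf5* and *Foxa1* fall on both sides of 0.

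All 4 factors that were DE remained so in each of the 13 fits that left out 1 rat. Over these fits the log2 fold change was -0.84 to -0.68 for *Sox9*, -0.76 to -0.65 for *Ehf*, -0.58 to -0.48 for *Ovol1* and -0.47 to -0.37 for *Trps1*. The highest adjusted p of limma over these fits was 0.0107 for *Sox9*, 0.0056 for *Ehf*, 0.0211 for *Ovol1* and 0.0492 for *Trps1*. Of the 4, *Trps1* was thus closest to the threshold. Rat 74, the highest rat for *Ehf* and *Trps1*, stood apart in *Krt10*, a keratin of skin, at 1012 normalized counts against 0 to 28 in the other rats at 10 weeks. Without rat 74 the log2 fold change was -0.67 for *Ehf* (adjusted p = 0.0049) and -0.37 for *Trps1* (adjusted p = 0.0357).

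The cell makeup of the fragments was read from marker genes. All 10 luminal markers (such as the keratin *Krt8*) and all 11 basal markers (such as *Krt14* and smooth muscle actin *Acta2*) are in the table and above 0 in every rat, as the labelled tissue calls for. The luminal markers summed to 31521 to 63246 normalized counts at 6 weeks and 44718 to 71385 at 10 weeks. The basal markers summed to 26752 to 41842 and 36901 to 48198. As a score, the mean of log2(normalized count + 1) over the list, the luminal markers ranged from 10.53 to 11.64 at 6 weeks and from 10.80 to 11.62 at 10 weeks.

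Markers of other cell types moved with age. Of the 9 fibroblast markers listed, 8 are in the table and 5 of them (*Col1a1*, *Col3a1*, *Lum*, *Pdgfrb* and *Thy1*) were DE and higher at 6 weeks. They summed to 107475 to 223843 normalized counts at 6 weeks and 19801 to 56274 at 10 weeks, with no marker at 0 in any rat. All 5 mast cell markers were DE and higher at 6 weeks (summed range 383 to 911 against 25 to 230), with *Tpsb2*, *Ms4a2* and *Hdc* at 0 in at least 1 rat at 10 weeks. Of the 11 cell cycle genes in the table, 10 were DE and higher at 6 weeks (summed range 2728 to 5662 against 355 to 1495). In bulk samples, fewer cells of a type and less RNA per cell cannot be told apart.

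**Figure D3:**
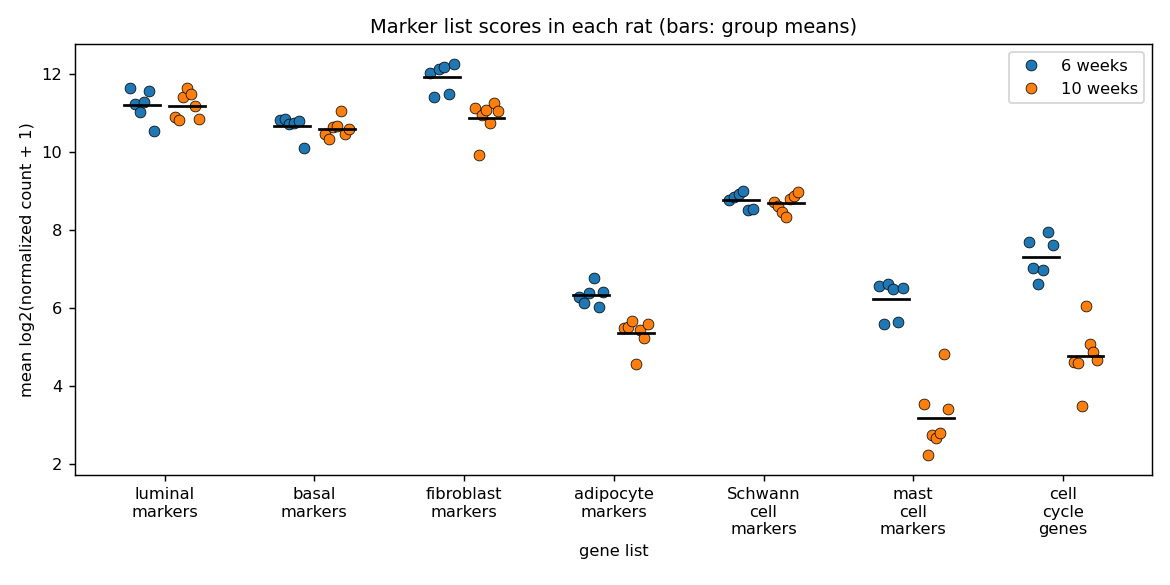
Mean log2(normalized count + 1) of each marker list (vertical axis) in every rat, with bars for the mean of each age. Fibroblast, adipocyte and mast cell markers and cell cycle genes lie higher at 6 weeks with no overlap between the ages, and luminal, basal and Schwann cell markers overlap.

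The fibroblast score lay between 11.41 and 12.26 at 6 weeks and between 9.91 and 11.24 at 10 weeks, so it did not overlap between the ages. With this score added to limma as a term, an alternative chosen after seeing the data, 72 of all genes and none of the 10 factors were DE (0 at an adjusted p under 0.05 in limma). *Sox9* was then at -0.72 ± 0.24 (SE, adjusted p = 0.245), *Ehf* at -0.51 (adjusted p = 0.318), *Ovol1* at -0.30 (adjusted p = 0.554) and *Trps1* at -0.14 (adjusted p = 0.767). Because age and the fibroblast score go together in these rats, their parts in the 4 differences cannot be told apart. With the luminal score as a term, also chosen after seeing the data, the 4 factors were DE again and *Elf3* joined them (log2 fold change -0.42, adjusted p = 0.0186).

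Within each age the factors varied to different degrees and followed different rats. The SD on the log2 scale was largest for *Foxa1* (0.57 at 6 weeks and 0.80 at 10 weeks), *Sox10* (0.56 and 0.71) and *Elf5* (0.43 and 0.64). For the 4 factors that were DE it was 0.12 to 0.24 at 6 weeks and 0.17 to 0.23 at 10 weeks. Correlations over the 13 rats, taken on deviations from the age means, are given as descriptions, because all genes of a rat share its library and the split into sets. Pearson's r with the first principal component was 0.88 for *Sox10*, 0.72 for *Foxa1* and 0.62 for *Sox9*, but -0.79 for *Trps1* and -0.47 for *Ehf*. At 10 weeks *Sox10* averaged 667 normalized counts in the smaller set and 277 in the larger set, *Foxa1* 114 and 41.8, and *Trps1* 3601 and 4243. With the luminal score, r was highest for *Foxa1* (0.87), *Elf3* (0.80) and *Sox10* (0.70), and was -0.12 for *Sox9* and -0.061 for *Ehf*.

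For the factors that were DE and for 4 lineage factors, the genes with the most similar pattern over the 13 rats were sought among 8857 genes with a mean of at least 100 normalized counts. *Elf5* stood nearest to genes of milk secretion. Its r was 0.97 with *Prr27* (ENSRNOG00000023342), 0.94 with *Btn1a1*, the butyrophilin of the milk fat globule, and 0.94 with *Csn1s1*, the alpha-S1 casein. The values held without the smaller set, at 0.96, 0.95 and 0.91 over 8 rats. *Csn1s1* reached 153585 normalized counts in rat 81, where *Elf5* was highest, and 36630 and 44111 in rats 84 and 86, the highest for *Elf5* at 6 weeks. At the other end, rats 85 and 75, with the lowest *Elf5*, had 4841 and 5205. The lowest *Csn1s1*, however, was 3067 in rat 83, where *Elf5* stood at 204.

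**Figure D4:**
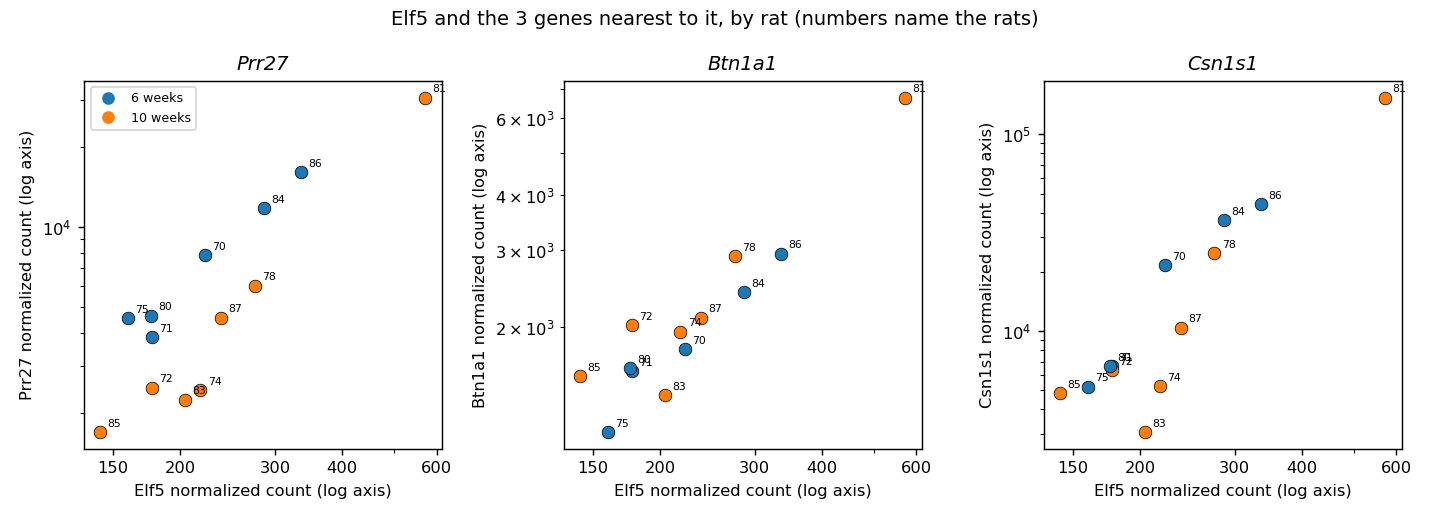
*Elf5* (horizontal log axis) against *Prr27*, *Btn1a1* and *Csn1s1* (vertical log axes) in normalized counts, with 1 point per rat coloured by age and labelled with its number. Rat 81 is highest on all axes, with 572 for *Elf5*, and rats 84 and 86 lead at 6 weeks.

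The genes nearest to the other factors were of mixed kinds. *Sox9* had *Ubap2* (r = 0.93), *Sertad2* (0.91) and the chromatin remodelling subunit *Smarcc2* (0.91). *Ehf* had the polarity kinase *Prkci* (0.95), the ubiquitin-conjugating enzyme *Ube2g1* (0.93) and malic enzyme *Me1* (0.92). Among the genes nearest to *Ovol1* were *Lrp4* (0.86) and the desmosomal plakophilin *Pkp1* (0.83), which fell to 0.69 and 0.62 in the larger set.

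*Trps1* had *Pcmtd2* (0.92), the zinc finger gene *Zfp266* (0.91) and the pocket protein gene *Rbl2* (0.90). *Gata3* had *Tspan14* (0.93), *Rrp1* (0.92) and the circadian repressor *Nr1d1* (0.91). *Tp63* had *LOC100911837* (0.89), the glypican *Gpc4* (0.88) and *Gmeb1* (0.88), and *Sox10* had *Ppan* (0.99), *Zbtb7a* (0.98) and *Mib2* (0.98).

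The lineage factors searched were not each other's nearest genes. *Foxa1*, with a mean of 67.6 normalized counts, is not among the 8857 genes and so could not be chosen as a closest member. The closest member to *Ehf* was *Trps1* (r = 0.55), at rank 1192 of 8857 genes. The closest to *Sox9* was *Sox10* (r = 0.52, rank 1134), which fell to 0.014 in the larger set. For *Gata3* it was *Sox10* (0.61, rank 711), for *Ovol1* it was *Tp63* (0.52, rank 351), and for *Elf5* it was *Ehf* (0.32, rank 1308). In the larger set these were 0.35, 0.29 and 0.038, while *Ehf* with *Trps1* was 0.69.

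Relatives of the factors within the same gene families were compared next. Of 16 listed, 10 are in the table, and *Gata1*, *Gata4*, *Gata5*, *Foxa2*, *Foxa3* and *Ovol3* are not among its genes. Of these 10, 1 passed the test, beside 16.1% of all genes. This was the ETS factor *Elf2*, which rose from 1731 ± 198 normalized counts (SD, n = 6) at 6 weeks to 2314 ± 202 (SD, n = 7) at 10 weeks. Its log2 fold change was -0.42 (adjusted p = 0.0156), and every rat at 10 weeks (2076 to 2647) lay above every rat at 6 weeks (1480 to 1974). *Elf1*, the relative with the highest mean, had a log2 fold change of -0.32 that did not pass (adjusted p = 0.0998), but was DE without rat 81 (-0.37, adjusted p = 0.0481). The median of the 10 relatives was -0.041.

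All 25 other regulators of luminal cells are in the table, and 6 were DE, 5 higher at 10 weeks and 1 higher at 6 weeks. Over all genes, 16.1% were DE, 7.39% being higher at 10 weeks and 8.71% higher at 6 weeks. The AP-2 factors that act early in luminal commitment were among the 6 regulators. *Tfap2a* had 114 ± 40.1 normalized counts (SD, n = 6) at 6 weeks and 233 ± 58.7 (SD, n = 7) at 10 weeks (log2 fold change -1.06, adjusted p = 0.0139). *Tfap2c* had 526 ± 77.9 and 779 ± 171 (-0.55, adjusted p = 0.032), and lost the call without any of rats 70, 71, 78, 84, 86 and 87 (adjusted p up to 0.0684).

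Also higher at 10 weeks were *Xbp1*, a regulator of secretory capacity (log2 fold change -0.48, adjusted p = 0.0184), and *Nfib* (-0.42, adjusted p = 0.0272). *Xbp1* ranged from 733 to 932 normalized counts at 6 weeks and from 874 to 1347 at 10 weeks. *Nfib* lost the call without rat 70, 72, 74, 84 or 87 (adjusted p up to 0.0661).

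*Cited1*, a cofactor of the estrogen receptor, went the other way, from 119 to 838 normalized counts at 6 weeks to 25 to 282 at 10 weeks. Its log2 fold change was 1.86 (adjusted p = 0.0489), and it remained DE only when rat 80 or rat 81 was the one left out, with an adjusted p of 0.0197 to 0.113 over the 13 fits. *Klf5*, with the highest mean of the list among genes that did not pass, had a log2 fold change of -0.25 (adjusted p = 0.138). The median of the list was -0.13.

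**Figure D5:**
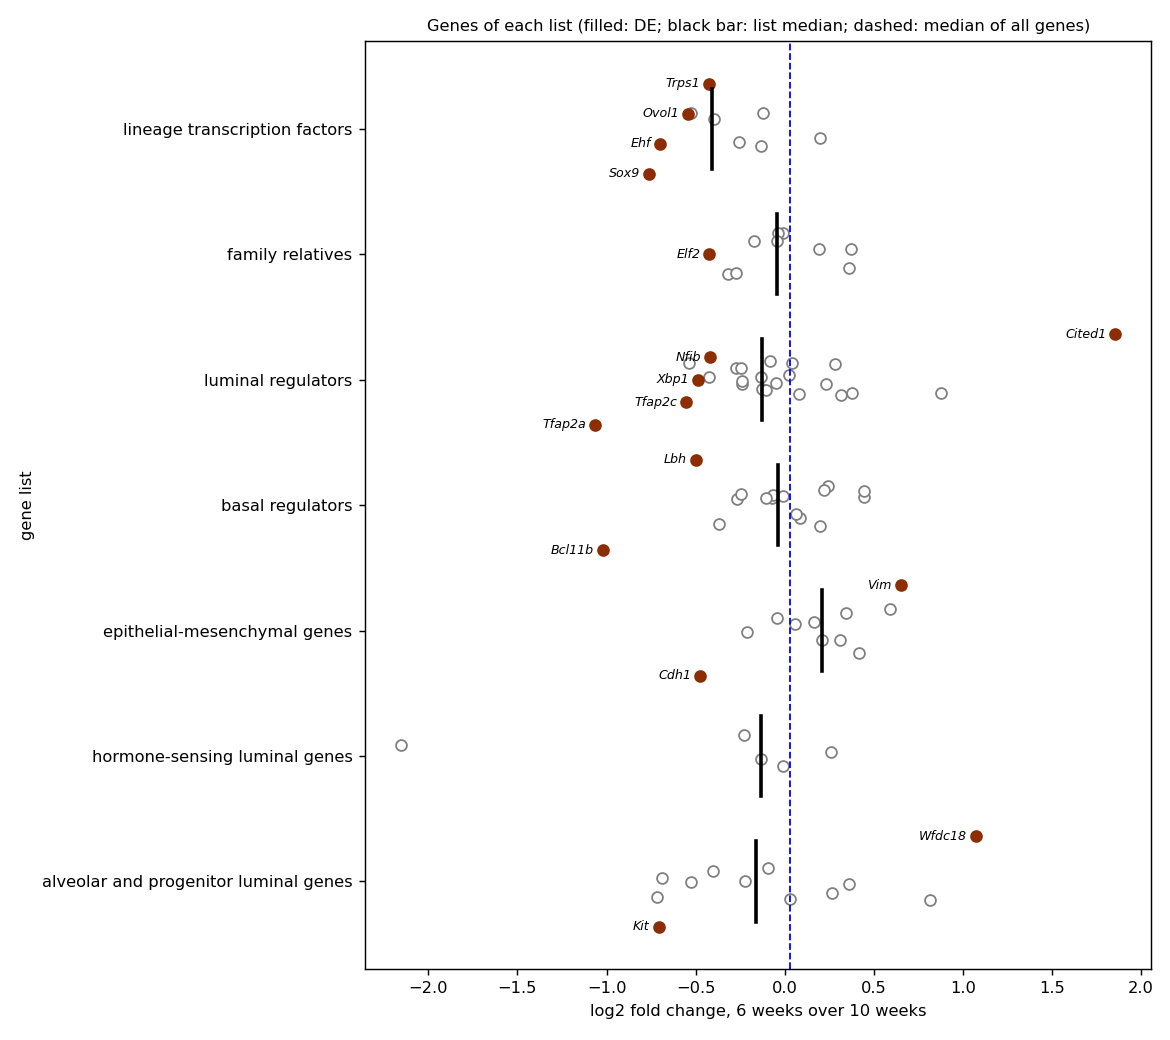
Log2 fold change (horizontal axis, 6 weeks over 10 weeks) of each gene in 6 lists and among the lineage factors, with DE genes filled and named (1 luminal regulator is not drawn), a black bar for the median of each list and a dashed line for the median of all genes. The bar of the lineage factors lies at -0.41, and those of the other lists lie between -0.16 and 0.21.

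All 16 regulators of basal cells are in the table, and 2 were DE, both higher at 10 weeks. Of all genes, 16.1% were DE and 7.39% were DE and higher at 10 weeks. *Lbh*, a WNT target of basal cells, had 105 ± 5.5 normalized counts (SD, n = 6) at 6 weeks and 149 ± 18.9 (SD, n = 7) at 10 weeks (log2 fold change -0.50, adjusted p = 0.00763). *Bcl11b* was found at very low normalized counts, 4 to 16 at 6 weeks and 13 to 26 at 10 weeks (log2 fold change -1.02, adjusted p = 0.0257). It lost the call without rat 72, 74, 84 or 87 (adjusted p up to 0.0579). *Klf4* had a log2 fold change of -0.065 (adjusted p = 0.782), which was 0.023 without rat 84, and the median of the list was -0.038.

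Genes that part epithelial from mesenchymal cells were measured in full, 11 of 11, and 1 was DE in each direction, beside 16.1% of all genes in either. *Cdh1*, the E-cadherin of epithelial junctions, was higher at 10 weeks, with 12484 to 20526 normalized counts at 6 weeks and 19558 to 25808 at 10 weeks (log2 fold change -0.47, adjusted p = 0.0165). *Vim*, the vimentin of mesenchymal cells, was higher at 6 weeks, with 5645 to 8554 against 3618 to 5193 (0.65, adjusted p = 0.00517). The other 9, among them *Esrp1* at -0.21 (adjusted p = 0.213), did not pass the test. The fibroblast markers also stood higher at 6 weeks, as given above. With the fibroblast score as a term neither *Cdh1* (-0.24) nor *Vim* (0.26) was DE, and only 72 of all genes were. Because this score did not overlap between the ages, its part and that of age cannot be told apart.

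Downstream genes of the lineages were counted last, beside the 16.1% of all genes that were DE. Of the hormone-sensing luminal genes, 5 of 7 are in the table and 0 were DE in limma. Of these 5, 4 had a log2 fold change below 0, and the median was -0.13. *Areg*, the amphiregulin released under estrogen and the one with the highest mean, was at 0.26 (adjusted p = 0.506 in limma). Of the alveolar and progenitor luminal genes, 12 of 13 are in the table and 2 were DE. *Kit*, the receptor that marks luminal progenitors, had 1324 to 2190 normalized counts at 6 weeks and 1467 to 3755 at 10 weeks (log2 fold change -0.71, adjusted p = 0.0343). It remained DE only without rat 71, 80, 81 or 83, and its adjusted p reached 0.0749 without rat 84. *Wfdc18*, at 12 to 38 against 5 to 16 normalized counts, was higher at 6 weeks (1.07, adjusted p = 0.0213). *Csn1s1* spanned 5205 to 44111 at 6 weeks and 3067 to 153585 at 10 weeks, and its log2 fold change of 0.36 did not pass (adjusted p = 0.807).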

How the data were processed

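RNA-seq libraries of 13 rats (6 at 6 weeks, 7 at 10 weeks; groups from the sample titles) were used, 1 library per rat. Per the labels and the study's methods, the authors used RSEM 1.2.22 to estimate counts of each gene. The submitters' processing notes name rn5, and the annotation and strandedness of the counting are not given in the sources used here. The deposited per-rat values are whole numbers whose scaling differs by library, so their unit was taken as a score, here called normalized counts, and no count model was used. Their precision at low values is unknown, because the depth before scaling is not given. Without strand, reads of *Gata3*, *Elf5* and *Trps1* cannot be told from those of the 1 long noncoding RNA that overlaps each in the RefSeq annotation (assembly GRCr8).

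The authors' deposited comparison of the ages (log2 fold change and log2 mean abundance, a likelihood ratio score, p-value and false discovery rate, −log10 p, and a signed −log10 p score) and a column on nuclear or cytoplasmic location were not used. The authors made it with their own tools, and it is neither printed nor compared.

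Values were tested as log2(normalized count + 1), which understates changes of low genes, with limma 3.58.1 in R 4.3.3 on all 14790 genes, each of which has a mean of 1 or more. Two-sided p-values were adjusted over all genes by the Benjamini-Hochberg method (threshold 0.05). Simulated tables were used to test the fit. Lists are described by counts and medians, with no set test. The named genes are all 10 factors. From each list that is not a marker list come up to 5 DE genes per direction by absolute log2 fold change and the non-DE gene with the highest mean. For each DE factor and for *Gata3*, *Elf5*, *Tp63* and *Sox10*, the 3 genes with the highest Pearson r are named. Of the genes this rule takes, 2 are not reported here. The factors and lists were chosen with earlier results of these data known. The alternatives were other scalings (median-ratio, library size, upper quartile), no filter or a minimum of 10 in every rat, a pseudocount of 0.1, leaving out each rat, either set of rats, the set or marker scores as a term, limma-trend and sample quality weights.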

Additional observations from a re-analysis of the deposited data

Results flagged for a closer look

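In all, 4 results were marked by Dixon's test for a value far from the rest of its group, among 60 groups tested, 3 of them in rat 81 at 10 weeks. *Elf5* stood at 572 normalized counts in this rat, against 142 to 275 in the other 6 rats of its age. *Csn1s1* stood at 153585, against 3067 to 24922. *Cited1* stood at 282, against 25 to 134. *Krt10*, added after its values were seen, stood at 1012 in rat 74 at 10 weeks, against 0 to 28. The gap to the nearest rat took 0.691, 0.855, 0.576 and 0.972 of the range of the group, each above the 95% critical value for 7 samples. The test was run on untransformed normalized counts, whereas limma used the log2 scale, and the marks may depend on the scale. Because *Krt10* was added after its values were seen and the other 3 marks share rat 81, the count is not read against a chance rate.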

How the results depend on the processing

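The 4 DE factors remained DE under every alternative, leaving out each rat included, with 3 exceptions. Under library size scaling 3 factors were DE, without *Trps1*. In the smaller set of rats (2 against 3), 0 factors and 0 genes were DE in limma, and 1976 genes had an unadjusted p under 0.05. With the fibroblast score as a term, 0 factors and 72 genes were DE. Over all genes, 2381 were DE, 5647 with sample quality weights, and 1411 to 2680 with each rat left out, the lowest being 1411 without rat 70, 1488 without rat 84 and 1558 without rat 87. Direction turned for several genes that were not DE. With the fibroblast score as a term, *Gata3* was at 0.012, *Klf5* at 0.035, *Esrp1* at 0.058 and *Csn1s1* at -0.46. In the larger set *Elf5* was at 0.38 and *Foxa1* at 0.42, and with quality weights at 0.074 and 0.32. In the smaller set *Klf4* was at 0.23 and *Csn1s1* at -1.95. Leaving out each rat gave -0.25 to 0.090 for *Elf5*, -0.30 to 0.095 for *Foxa1* and -0.16 to 0.023 for *Klf4*. The causes were not tested. No paired analysis was possible because each rat number occurs at 1 age only. The depth before scaling is unknown, which limits low genes such as *Foxa1*, *Bcl11b* and *Wfdc18* most.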

Other observations

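Structural genes of the basal layer moved in both directions. Of 11 basal markers, *Krt15* (0.68, adjusted p = 0.0445) and *Cdh3*, the P-cadherin of basal cells (0.66, adjusted p = 0.0213), were DE and higher at 6 weeks. *Cnn1*, a calponin of contractile cells, was DE and higher at 10 weeks (-0.46, adjusted p = 0.0357). *Cdh3* had 205 to 382 normalized counts at 6 weeks and 117 to 202 at 10 weeks, with no overlap, and remained DE in all 13 fits that left out 1 rat. *Krt15* remained DE in 3 of them, those without rat 75, 83 or 86, and *Cnn1* in 4 of them, those without rat 71, 78, 80 or 81. Among 10 luminal markers, *Epcam* alone was DE, at 10767 ± 1347 normalized counts (SD, n = 6) and 14155 ± 2051 (SD, n = 7), a log2 fold change of -0.39 (adjusted p = 0.0454). It lost the call in each of the 13 fits, with an adjusted p of 0.0505 to 0.0808. The p-values are from limma, and these markers were named after their values were seen.

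Other cell types gave mixed values. Of the 5 adipocyte markers in the table, 2 were DE and higher at 6 weeks. Their score did not overlap between the ages, but their summed normalized counts did (1594 to 2518 at 6 weeks, 1484 to 2757 at 10 weeks). Of 3 T lymphocyte markers in the table, *Il7r* was DE and higher at 10 weeks, while *Cd3e*, *Cd3d*, *Cd3g*, *Cd2* and *Cd8a* are not among the genes of the table. The 7 macrophage and 5 endothelial markers, the 1 skin keratinocyte marker (*Krt10*, at 1012 normalized counts in rat 74) and the 2 skeletal muscle markers in the table gave 0 DE genes in limma.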
